A study of Mus musculus with 24 samples.

Results

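The visual cycle is the set of reactions that returns spent chromophore to photoreceptors, and 10 of its genes were followed here among the 56748 genes of the deposited table. They were chosen by symbol: Rpe65, Lrat, Rdh5, Rdh8, Rdh12, Rlbp1, Rgr, Rbp3, Abca4 and Ttr. All 10 had counts in every library and passed the filter on low counts in every comparison.

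In a photoreceptor, light turns the 11-cis-retinal bound to an opsin into all-trans-retinal. ABCA4 moves this product across the disc membrane, RDH8 and RDH12 reduce it to retinol, and RBP3, the retinoid-binding protein of the matrix between photoreceptors and the retinal pigment epithelium (RPE), carries it outward. In the RPE, LRAT esterifies retinol, RPE65 isomerises the ester, RDH5 oxidises the product to 11-cis-retinal and RLBP1, also made by Müller glia, holds it. RGR is an opsin of RPE and Müller glia that binds all-trans-retinal, and TTR, a carrier of thyroxine and of retinol-binding protein, is abundant in the RPE.

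Messenger RNA was sequenced from the neural retina and from the remaining eye cup, which holds the RPE, choroid and sclera, of 12 mice. PRDM13-OE mice were heterozygous and carried 1 copy of a doxycycline-inducible cassette at Rosa26 that encodes human PRDM13 with an HA tag, on a C57BL/6J background, and the controls were wildtype littermates. Both genotypes either drank doxycycline (dox, 2 mg/ml with 10% sucrose) for 72 hours from postnatal day 28 or were left untreated, which gave 4 groups of 3 mice, males and females together. The transactivator was driven by the ubiquitous EF-1α promoter, so the cassette was not aimed at 1 cell type, and slight expression without dox is a known limit of such a system. Dox and sucrose were given together, so their effects cannot be told apart.

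Counts per library ran from 15825059 to 24908314. The human transgene was not analysed here, and mouse Prdm13 was present in all 12 retinas at 44.9 to 60.3 CPM, the count scaled to the size of its library. Gm13394, a predicted gene, stood at 206 to 531 CPM in the PRDM13-OE libraries, except in both libraries labelled PRDM13-OE untreated mouse 1, where it was 4.84 (retina) and 3.06 (eye cup), within the wildtype range of 2.11 to 7.61. For the main results of comparisons that include that mouse, values without it are given as well. Xist was present in 3 of 3 PRDM13-OE dox mice, 2 of 3 wildtype dox mice, 2 of 3 PRDM13-OE untreated mice and 1 of 3 wildtype untreated mice. Lens crystallin transcripts, summed over 13 genes, ran from 3.547 to 11310 CPM among retinas, and blood transcripts, summed over 5 genes, were 0.7088 to 1.182 CPM in the PRDM13-OE dox retinas against 21.64 to 77.79 CPM in the other 9.

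The tissue comparison in untreated wildtype mice showed which of the dissected tissues held more RNA of each member. The eye cups were not free of photoreceptor RNA, since 14 rod genes summed to 3522 to 26650 CPM in them. The RPE members Ttr, Rdh5, Rpe65, Rgr and Lrat and the RPE and Müller member Rlbp1 were higher in the eye cup, while the photoreceptor members Rdh8, Rbp3, Rdh12 and Abca4 were higher in the neural retina. Levels are compared between genes in FPKM, the deposited level scaled for gene length and depth, and changes within a gene come from edgeR's quasi-likelihood test. A gene passed that test at an adjusted p under 0.05, and it was called where its log2 fold change was also past 1 in size.

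Ttr had 16570, 18360 and 24880 FPKM in the 3 eye cups and 51.4, 38.44 and 16.01 FPKM in the retinas of the same mice. Rpe65, the isomerase, had 879.4, 1313 and 1356 FPKM in the eye cups against 8.101, 7.79 and 2.159 FPKM in the retinas. Rlbp1 had 748.0, 1028 and 953.7 FPKM in the eye cups against 176.3, 174.2 and 207.4 FPKM in the retinas. For all 3 genes each eye cup was above each retina, by the smallest margin for Rlbp1. The log2 fold change was 9.15 for Ttr (edgeR adjusted p = 1.55e-05), 8.17 for Rdh5 (1.96e-05), 7.63 for Rpe65 (4.06e-05), 7.56 for Rgr (3.94e-05) and 2.30 for Rlbp1 (4.88e-05). Lrat, the acyltransferase, was also called higher in the eye cup, at a mean of 164.7 against 1.234 FPKM.

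Rdh8, a retinol dehydrogenase of photoreceptor outer segments, had 17.73, 1.274 and 5.551 FPKM in the eye cups and 67.77, 70.37 and 65.51 FPKM in the retinas. The eye cups of mouse 1 and mouse 2 thus differed by far more than the retinas did. The log2 fold change of eye cup over retina was -3.04 for Rdh8 (edgeR adjusted p = 0.00919), -2.38 for Rbp3 (0.0198), -2.29 for Rdh12 (0.0181) and -1.35 for Abca4 (0.00146). Without the eye cup of wildtype untreated mouse 3, Rdh8 (adjusted p = 0.0506), Rdh12 (0.0629) and Rbp3 (0.0839) no longer passed. All 10 visual cycle genes were called, 6 higher and 4 lower in the eye cup, where 45.2% of all 21979 genes tested were called, 25.9% higher and 19.3% lower. The plot of FPKM by tissue shows the separation of the RPE members.

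**Figure D1:**
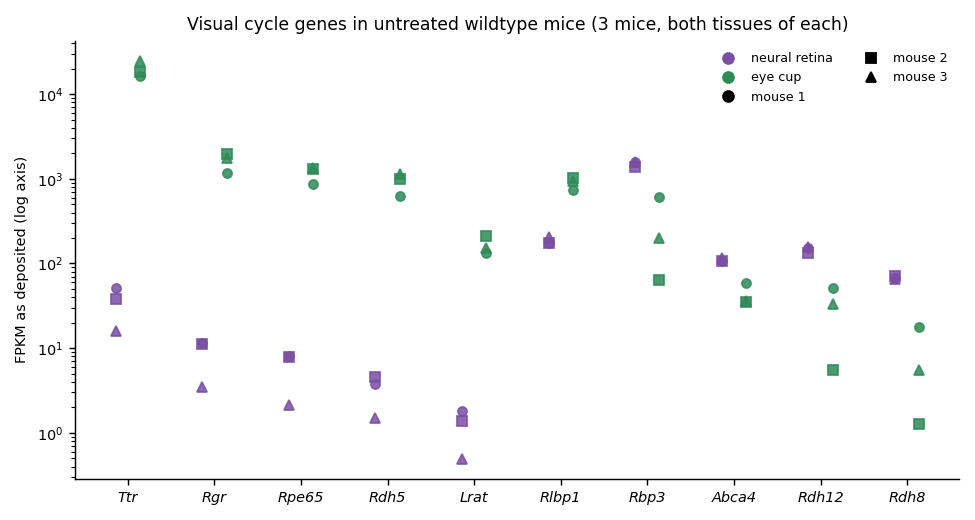
FPKM (log axis) of the 10 visual cycle genes in untreated wildtype neural retina and eye cup, 1 point per mouse (n = 3 per tissue). The 5 RPE members lie 7.06 or more log2 units higher in the eye cup by the fitted change, Rlbp1 lies 2.30 higher, and Rdh8, Rbp3, Rdh12 and Abca4 lie lower there.

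Within the untreated wildtype retina the order by mean FPKM was Rbp3 (1511), Rlbp1 (186.0), Rdh12 (146.6), Abca4 (110.6), Rdh8 (67.88), Ttr (35.29), Rgr (8.779), Rpe65 (6.017), Rdh5 (3.255) and Lrat (1.234). From Rbp3 down to Rgr no neighbours overlapped between mice. Rgr overlapped Rpe65, Rpe65 overlapped Rdh5 and Rdh5 overlapped Lrat. In the eye cup the order was Ttr (19940), Rgr (1647), Rpe65 (1183), Rdh5 (927.9), Rlbp1 (909.9), Rbp3 (290.8), Lrat (164.7), Abca4 (43.27), Rdh12 (29.75) and Rdh8 (8.185). There, only Ttr over Rgr, Rlbp1 over Rbp3 and Lrat over Abca4 were neighbours without overlap.

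The comparison of PRDM13-OE dox with wildtype dox retinas asks what the induced factor changes in the retina. Rdh8 fell to a level 2.26-fold lower, the largest change among the visual cycle genes, and Rlbp1, Rgr, Ttr and Rbp3 fell by smaller amounts. Abca4, Rdh12, Rpe65, Rdh5 and Lrat did not pass. Thus 1 of the 10 members was called, where 2.41% of 20560 genes were called, and 5 fell at an adjusted p under 0.05, where 7.51% of genes did so. For the same 5 members the groups of 3 did not overlap and PRDM13-OE was the lower, which held for 15.4% of genes. No member rose at an adjusted p under 0.05, as 5.01% of genes did. The median log2 fold change of the 10 members was -0.35, against 0.006 over all genes tested. As these are bulk libraries, fewer cells of a type and less RNA per cell cannot be told apart. Rgr and Ttr were higher in the untreated wildtype eye cup than in the retina by 7.56 and 9.15 log2 units. How much of their RNA in the retinas came from RPE left on in dissection was not tested.

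The sequences upstream of the 4 photoreceptor members are shown because these genes are all known as photoreceptor genes and their values in PRDM13-OE dox retinas differed. Each runs 5′ to 3′ over the 250 bases before the gene's start in RefSeq (GRCm38.p6, all on the + strand): Rdh8 at chr9:20818244-20818493, Rbp3 at chr14:33953753-33954002, Rdh12 at chr12:79208663-79208912 and Abca4 at chr3:122044210-122044459. Capitals mark TAATCC or TAATCT, the letters recognised by the photoreceptor homeodomain factors CRX and OTX2, read on either strand (GGATTA is TAATCC on the other strand).
Rdh8: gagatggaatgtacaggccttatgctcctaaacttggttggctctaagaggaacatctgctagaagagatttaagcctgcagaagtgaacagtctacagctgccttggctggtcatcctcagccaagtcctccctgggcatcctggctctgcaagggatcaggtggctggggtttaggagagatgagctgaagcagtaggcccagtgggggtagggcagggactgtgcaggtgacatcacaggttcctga
Rbp3: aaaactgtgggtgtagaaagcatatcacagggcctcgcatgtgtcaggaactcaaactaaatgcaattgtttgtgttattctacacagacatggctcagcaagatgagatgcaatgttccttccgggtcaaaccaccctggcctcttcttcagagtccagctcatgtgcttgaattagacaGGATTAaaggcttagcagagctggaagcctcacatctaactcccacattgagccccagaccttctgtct
Rdh12: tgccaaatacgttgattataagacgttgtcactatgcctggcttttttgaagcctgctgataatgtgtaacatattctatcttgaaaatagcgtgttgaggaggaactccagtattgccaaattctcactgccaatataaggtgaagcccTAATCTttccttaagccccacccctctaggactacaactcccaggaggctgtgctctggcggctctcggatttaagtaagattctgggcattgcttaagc
Abca4: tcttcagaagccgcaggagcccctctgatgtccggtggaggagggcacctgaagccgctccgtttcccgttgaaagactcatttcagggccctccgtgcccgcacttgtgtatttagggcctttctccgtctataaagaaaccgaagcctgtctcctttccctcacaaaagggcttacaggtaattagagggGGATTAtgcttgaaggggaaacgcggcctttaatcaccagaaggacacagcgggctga

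Rbp3 and Abca4 each held 1 TAATCC, at bases -69 to -64 and -58 to -53 from the start, and Rdh12 held 1 TAATCT at -100 to -95. Neither word was found in this window of Rdh8. Of the 9 members with a sequence used here, 5 held at least 1 of the words, the others being Rpe65 (TAATCC at -42 to -37) and Rgr (TAATCC at -167 to -162 and TAATCT at -12 to -7). Among 32851 promoters of the same length, 6.25% held TAATCC, 7.31% held TAATCT and 12.8% held either. A match describes letters only and shows no binding.

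Rdh8 (ENSMUSG00000053773, chr9:20729799-20737413 on the + strand of GRCm39) stood at 40.7, 32.7 and 40.7 CPM in the PRDM13-OE dox retinas and at 80.4, 84.3 and 91.8 CPM in the wildtype dox retinas. It was 90.0, 89.5 and 93.8 CPM in the PRDM13-OE untreated retinas and 103.3, 109.7 and 99.9 CPM in the wildtype untreated retinas. The 3 PRDM13-OE dox retinas were therefore the lowest of the 12, with a gap to all others. Against wildtype dox Rdh8 changed by -1.18 ± 0.087 (log2, SE, n = 3 per group), with an adjusted p of 4.94e-06 by edgeR. Leaving out each mouse in turn gave -1.233 to -1.083.

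Rbp3, the carrier between photoreceptors and RPE, stood at 7296, 7393 and 8023 CPM in the PRDM13-OE dox retinas and at 8700, 8897 and 8460 CPM in the wildtype dox retinas. The groups did not overlap. The PRDM13-OE untreated retinas stood at 9023, 7931 and 7597 CPM, of which only the one labelled mouse 1, at 9023 CPM, was above the PRDM13-OE dox range. Rbp3 thus changed by -0.20 ± 0.033 (log2, SE) at an adjusted p of 0.00179 by edgeR. Abca4, the flippase, stood at 1265, 1374 and 1494 CPM in PRDM13-OE dox and 1317, 1454 and 1368 CPM in wildtype dox retinas. Its groups overlapped, with a log2 difference of -0.01 (95% interval -0.132 to 0.116). Rdh12, the dehydrogenase of photoreceptor inner segments, stood at 439.3, 436.9 and 458.0 CPM against 462.2, 454.5 and 481.5 CPM. Here too the groups overlapped, with a difference of -0.07 (-0.174 to 0.026), so a change of the size seen for Rdh8 lay outside both intervals.

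Rlbp1 (ENSMUSG00000039194, chr7:79024618-79036796 on the - strand of GRCm39), the retinal-binding protein, stood at 499.1, 465.7 and 474.5 CPM in the PRDM13-OE dox retinas and at 635.4, 649.1 and 675.7 CPM in the wildtype dox retinas. It was 665.3, 583.4 and 634.3 CPM in PRDM13-OE untreated and 565.3, 571.1 and 664.7 CPM in wildtype untreated retinas. All 3 PRDM13-OE dox retinas were below the other 9. Against wildtype dox, edgeR gave Rlbp1 a change of -0.45 ± 0.046 in log2 units (adjusted p = 6.08e-05), and leaving out each mouse gave -0.489 to -0.419.

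The RPE members had wider errors in the retina, and 2 of the 5 passed. Rgr stood at 34.0, 28.1 and 38.6 CPM in PRDM13-OE dox and 42.9, 49.7 and 62.7 CPM in wildtype dox retinas, a fitted change of -0.63 ± 0.137 (log2, SE) at an adjusted p of 0.011 by edgeR. Ttr stood at 47.4, 37.1 and 45.6 CPM against 58.7, 53.2 and 64.7 CPM, with a change of -0.45 ± 0.097 (SE; adjusted p = 0.0108). In the untreated groups the same genes spread widely: Rgr was 126.7, 23.9 and 35.0 CPM in PRDM13-OE and 60.5, 59.7 and 17.9 CPM in wildtype retinas, the highest being the retina labelled PRDM13-OE untreated mouse 1. Without PRDM13-OE dox retina 2, Rgr changed by -0.52 and no longer passed (adjusted p = 0.0552). With the retinas of all groups in 1 fit, neither Rgr (adjusted p = 0.476) nor Ttr (0.652) passed, and with edgeR's robust fit Rgr did not (0.129).

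Rpe65 stood at 11.4, 6.92 and 9.14 CPM against 8.35, 12.8 and 18.8 CPM, a log2 difference of -0.55 (95% interval -1.109 to 0.008; edgeR adjusted p = 0.195). Leaving out 1 mouse gave -0.798 to -0.211 for Rpe65, which passed without wildtype dox retina 1 (adjusted p = 0.0323) and in none of the other 5 such fits. With all mice Rpe65 passed in 1 of 7 alternatives. The groups overlapped, as they did for the remaining RPE members. Rdh5 stood at 11.5, 9.67 and 10.4 CPM against 11.5, 13.8 and 12.2 CPM, and Lrat at 7.68, 8.02 and 9.94 CPM against 7.25, 8.05 and 10.3 CPM. The plot of retinal levels shows a wider spread of the RPE members than of Rdh12, Abca4, Rbp3 and Rlbp1. Over the 12 retinas the highest level was 1.19 times the lowest for Rdh12, 1.2 for Abca4, 1.25 for Rbp3 and 1.45 for Rlbp1, but 5.67 for Rdh5, 6.12 for Rpe65, 7.03 for Ttr, 7.07 for Rgr and 8.26 for Lrat. Without the retina labelled PRDM13-OE untreated mouse 1 the ratio was 3.12 for Rdh5, 4.16 for Rpe65, 3.4 for Ttr, 3.5 for Rgr and 4.12 for Lrat, close to the 3.35 of Rdh8.

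**Figure D2:**
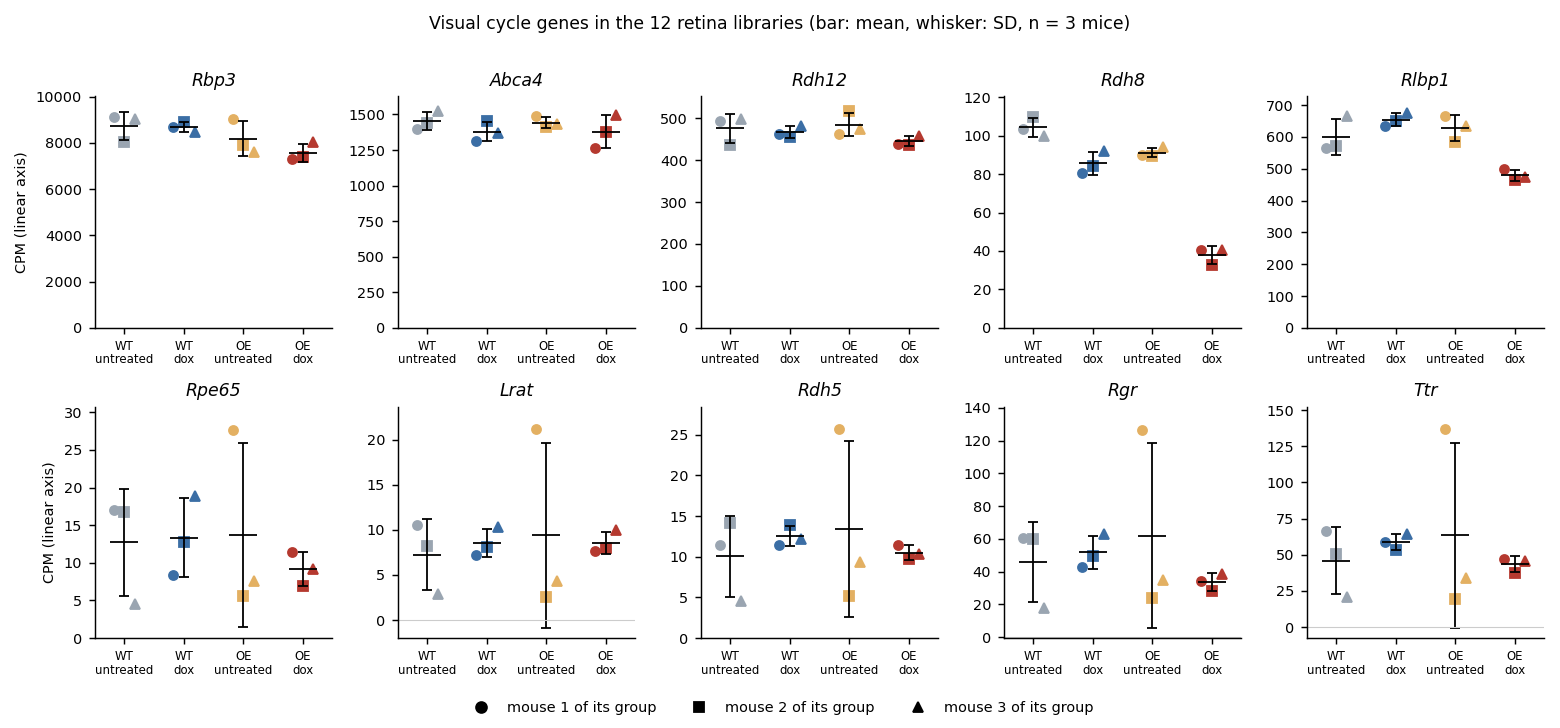
CPM (linear axis) of the 10 visual cycle genes in the 12 neural retinas by group, 1 point per mouse (n = 3 per group), with the group mean as a bar and the SD as a whisker. Rdh8 and Rlbp1 are lowest in the 3 PRDM13-OE dox retinas, and Rgr, Ttr, Rpe65, Lrat and Rdh5 are highest in the retina labelled PRDM13-OE untreated mouse 1.

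Marker genes of several cell types also differed between the PRDM13-OE dox and wildtype dox retinas. The summed level of 14 rod genes was 58910 to 65640 CPM against 77820 to 80620 CPM, and 11 of the 14 fell at an adjusted p under 0.05. The sum of 10 cone genes was 817.6 to 887.0 CPM against 1511 to 1567 CPM, with 8 lower and 1 higher. The sum of 10 Müller genes was 7351 to 7723 CPM against 7533 to 7579 CPM, with overlapping groups, 4 lower and 2 higher. The sum of 6 RPE genes outside the visual cycle was 21.97 to 26.12 CPM against 30.33 to 36.96 CPM, with 1 of 6 lower. Melanin genes passed as lower in 5 of 7 cases, lens in 13 of 13, blood in 5 of 5, endothelium in 3 of 5 and ciliary body in 2 of 4, with none of 6 fibroblast or 4 muscle genes passing.

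Against these sums, the visual cycle genes took different positions. The log2 ratio of Rdh8 to the rod sum was -10.5, -10.84 and -10.66 in PRDM13-OE dox retinas and -9.97, -9.9 and -9.73 in wildtype dox retinas, without overlap. Its ratio to the cone sum was -4.33, -4.69 and -4.45 against -4.23, -4.18 and -4.09, a smaller gap. Rbp3, Abca4 and Rdh12 had higher ratios to the rod sum in PRDM13-OE dox retinas than in wildtype dox retinas, for Abca4 -5.54, -5.45 and -5.46 against -5.94, -5.79 and -5.83. Rlbp1 over the Müller sum was -3.95, -3.98 and -4.02 against -3.57, -3.54 and -3.49, again without overlap. The ratio of Rgr to the RPE sum was 0.63, 0.2 and 0.57 against 0.5, 0.43 and 0.81, with overlap, and those of Ttr and Rpe65 overlapped too. Lrat over the RPE sum was -1.52, -1.61 and -1.39 against -2.06, -2.2 and -1.8, and Rdh5 over it was -0.94, -1.34 and -1.33 against -1.41, -1.42 and -1.55, both higher in PRDM13-OE dox without overlap. These ratios are descriptions of the 6 libraries and carry no test.

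The lens sum was 3.547 to 28.73 CPM in PRDM13-OE dox retinas and 11310, 4705 and 116.4 CPM in wildtype dox retinas. In a fit of all 12 retinas with the log2 lens sum as a covariate, chosen after seeing the data, Rdh8 changed by -1.35 (edgeR adjusted p = 5e-06) and Rlbp1 by -0.46 (0.0302), so both still passed. Rgr (-0.50, adjusted p = 0.828), Rbp3 (-0.17, 0.495) and Ttr (0.09, 0.976) did not pass in that fit. The lens sums of PRDM13-OE dox and wildtype dox retinas did not overlap, so the fit cannot fully separate the covariate from the group. Xist was present in all dox mice but wildtype dox mouse 3, and without that mouse Rdh8 changed by -1.11 (adjusted p = 5.78e-06), Rlbp1 by -0.42 (9.32e-05), Rgr by -0.46 (0.022), Rbp3 by -0.22 (0.00638) and Ttr by -0.37 (0.0307). All 5 passed.

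The untreated PRDM13-OE retinas gave a comparison within the genotype. Rdh8 fell there by 1.26 on the log2 scale (SE 0.084; edgeR adjusted p = 1.37e-06) and Rlbp1 by 0.39 (SE 0.059; 0.00125), with no other member passing. This was 1 member called, where 1.04% of 20603 genes were called, and 2 lower at an adjusted p under 0.05, where 2.96% were. Without the mouse labelled PRDM13-OE untreated 1, Rdh8 changed by -1.28 (adjusted p = 2.27e-06) and Rlbp1 by -0.35 (0.00294). In that fit Lrat rose by 1.30 (adjusted p = 0.00377) and Ttr by 0.70 (0.0352). The retina left out had the highest level of every RPE member among the 12, with Lrat at 21.2 CPM against 2.57 and 4.36 CPM in the other PRDM13-OE untreated retinas.

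Dox itself was tested in wildtype mice, and the cassette without dox in untreated mice. No member was called in wildtype dox against wildtype untreated retinas, where 0.00485% of 20631 genes were. Fits without 1 mouse called 0 to 126 genes and still no member. By edgeR, 1 member and 1922 genes had an unadjusted p under 0.05, and DESeq2 called no member. Rdh8 was lower in all 3 wildtype dox retinas than in all 3 untreated ones, with a log2 difference of -0.28 that did not pass (adjusted p = 0.257). It passed in 1 of 7 alternatives, with no filter on low counts (adjusted p = 0.00839), and DESeq2 gave 0.0531. Ttr, whose groups overlapped, also passed in 1 of 7 alternatives. No member and 0% of 20668 genes were called in PRDM13-OE untreated against wildtype untreated retinas by edgeR, with 1 member and 778 genes at an unadjusted p under 0.05 and no member called by DESeq2. The log2 differences ran from -0.19 to 0.48, and Rdh8 had -0.19 (adjusted p = 0.995). Rgr and Ttr each passed in 1 of 7 alternatives there, with overlapping groups. Without the mouse labelled PRDM13-OE untreated 1 the RPE members turned negative, to -1.05 for Lrat, -0.94 for Rpe65, -0.78 for Ttr, -0.63 for Rgr and -0.45 for Rdh5, none passing (lowest edgeR adjusted p 0.76), and Rdh8 had -0.18.

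The interaction asks directly whether dox changed a gene by another amount in PRDM13-OE than in wildtype retinas. For Rdh8 the difference of the 2 dox effects was -0.98 (95% interval -1.22 to -0.737; edgeR adjusted p = 6.08e-05) and for Rlbp1 -0.51 (SE 0.091; 0.00298). Both passed in 12 of 12 fits that left out 1 mouse. The point estimates for Rgr (-1.06, adjusted p = 0.507) and Ttr (-0.91, 0.599) did not pass, and without the mouse labelled PRDM13-OE untreated 1 they went to 0.015 (0.995) and 0.34 (0.787). No member reached the call of more than 1 on the log2 scale with an adjusted p under 0.05 in this comparison, where 0.87% of 22538 genes did, and 2 passed as lower, where 1.83% did. DESeq2 called no member either. The comparisons share groups of mice, so their estimates are not independent. The plot of fold changes sets the effect of genotype in dox mice beside that of dox in wildtype mice, for both tissues.

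**Figure D3:**
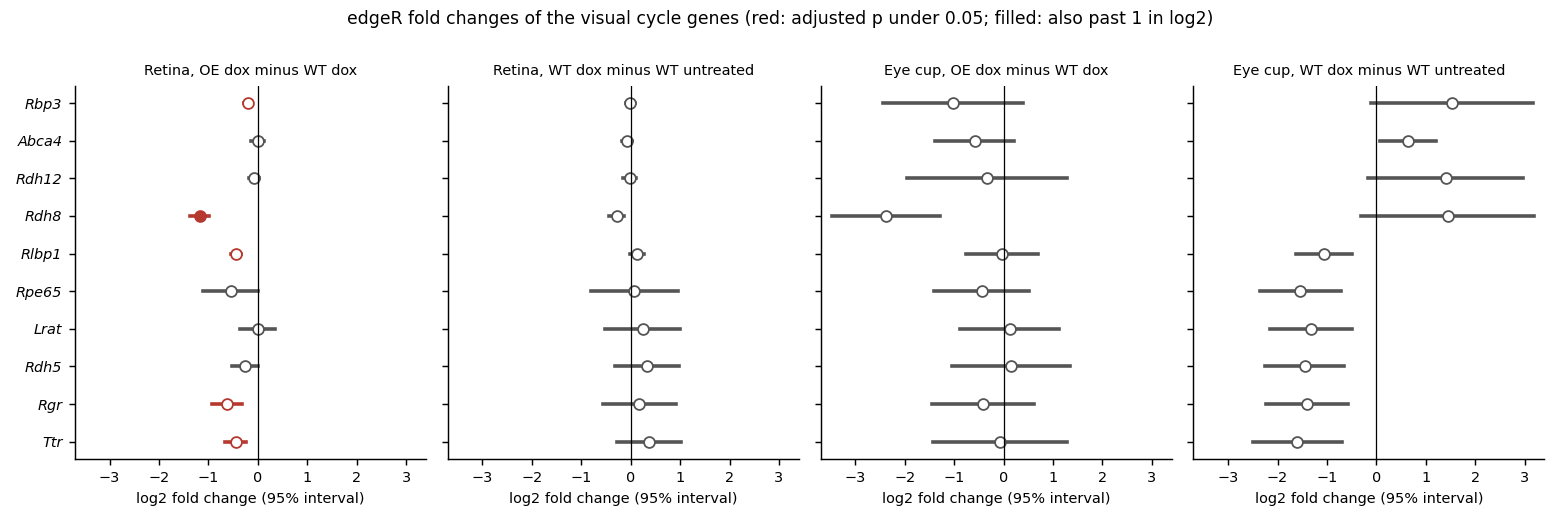
Fitted log2 fold changes of the 10 visual cycle genes with 95% intervals from edgeR (n = 3 mice per group), for PRDM13-OE dox against wildtype dox and for wildtype dox against wildtype untreated mice in each tissue; red marks an adjusted p under 0.05 and a filled point a called gene. In the retina 5 genes are red and Rdh8 is filled, at -1.18, while no gene is red in the other 3 panels.

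In the eye cup, wildtype mice with and without dox were compared first. The RPE members and Rlbp1 were lower, and the photoreceptor members had higher values, in the dox mice, but no member passed by edgeR (0 of 10, where 0% of 21799 genes were called). At an unadjusted p under 0.05 there were 7 members, where 29.9% of all genes (6517) were, and DESeq2 called 6 members and 1979 genes. Groups did not overlap for 6 members lower in dox, where 16.3% of genes were so, and for 3 members higher, where 21.4% were.

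Rpe65 stood at 505.8, 614.4 and 1117 CPM in the wildtype dox eye cups and at 1551, 2436 and 2439 CPM in the wildtype untreated ones. All dox eye cups were below all untreated ones, and those of dox mouse 1 and mouse 2 were the lowest of the 6. The log2 difference was -1.54 (95% interval -2.351 to -0.723; edgeR adjusted p = 0.0673). Ttr, at 5774, 5380 and 11090 CPM against 17920, 20880 and 27450 CPM, had -1.60 (adjusted p = 0.0701). Rlbp1, at 971.2, 1172 and 1523 CPM against 2015, 2912 and 2620 CPM, had -1.06 (0.0673). Rdh5 (-1.45), Rgr (-1.40) and Lrat (-1.33) had the same order of mice by group, with adjusted p of 0.0695, 0.0734 and 0.0766.

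The photoreceptor members ran the other way in the same eye cups. Rbp3 stood at 5113, 4607 and 3112 CPM in dox against 2924, 327.8 and 996.8 CPM in untreated eye cups, a log2 difference of 1.54 (edgeR adjusted p = 0.187). Abca4 had 0.64 (0.136), Rdh12 1.40 (0.204) and Rdh8 1.44 (0.237). The eye cup of wildtype untreated mouse 2 had the lowest level of Rbp3, Rdh12 and Rdh8 of all 12. Abca4 was not lowest there, at 402.6 CPM. Its log2 ratio to the sum of 14 rod genes was -3.13 there, against -6.03 to -4.01 in the other eye cups. Over the 12 eye cups the highest level was 2.5 times the lowest for Abca4, but 15.6 for Rbp3, 20.6 for Rdh8 and 23.3 for Rdh12. Abca4 thus followed the rod genes less closely in this tissue. The plot of eye cup levels shows these opposite orders.

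**Figure D4:**
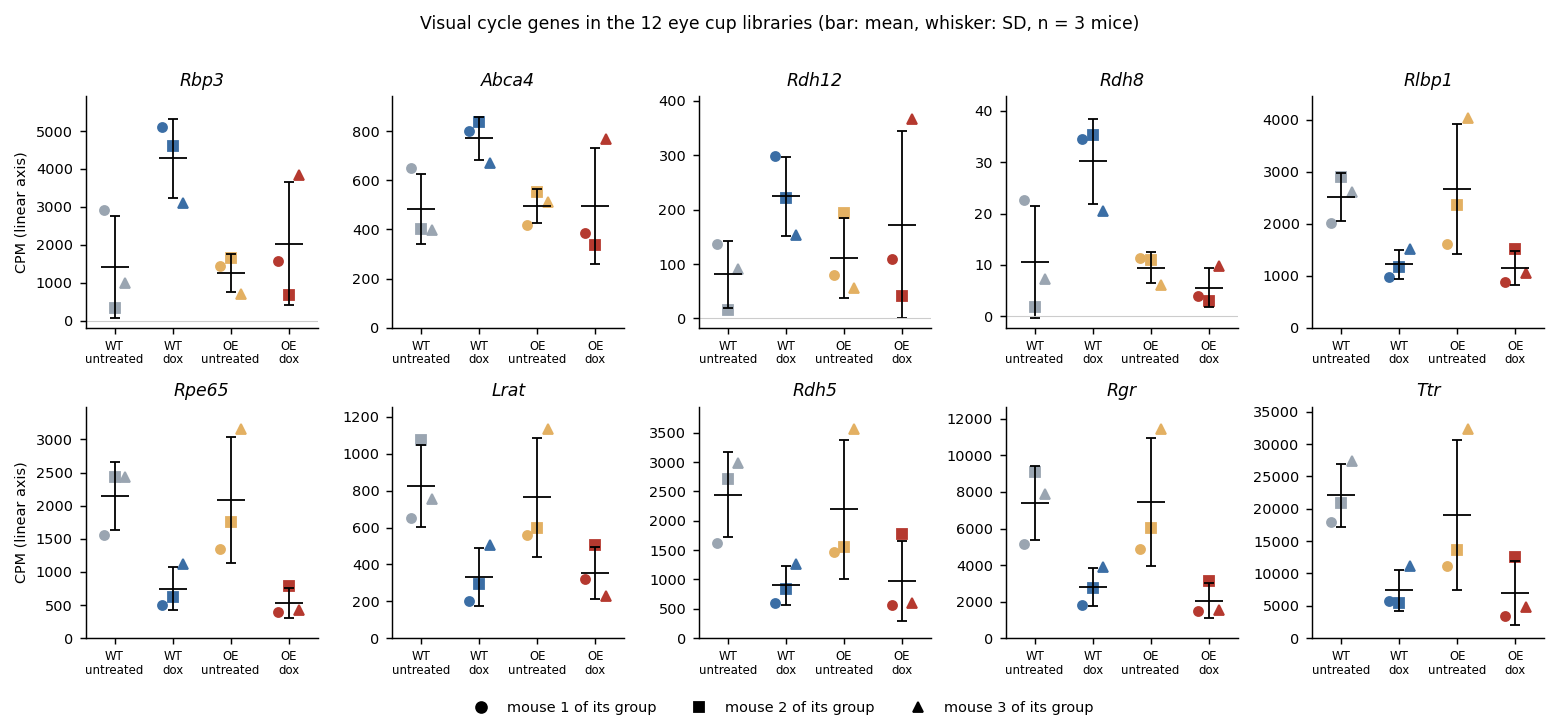
CPM (linear axis) of the 10 visual cycle genes in the 12 eye cups by group, 1 point per mouse (n = 3 per group), with the group mean as a bar and the SD as a whisker. The RPE members and Rlbp1 are lower in the 3 wildtype dox than in the 3 wildtype untreated eye cups, and Rbp3, Abca4 and Rdh12 are higher.

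Rod transcripts in the eye cup had higher values in the dox mice too. The 14-gene rod sum was 52390, 39930 and 27120 CPM in wildtype dox eye cups and 26650, 3522 and 13570 CPM in untreated ones, each dox value above each untreated one. None of the 14 genes passed (edgeR adjusted p 0.146 to 0.405), and for 7 of them the groups did not overlap, where 21.4% of all genes were apart in this direction. The 6-gene RPE sum was 775.2, 1201 and 1651 CPM against 2442, 3451 and 3135 CPM. With the log2 rod sum as a covariate over all 12 eye cups, chosen after seeing the data, Rpe65 changed by -0.90 (edgeR adjusted p = 0.881), Ttr by -0.94 and Rbp3 by 0.35, and no member was called. Scaling by library size in place of edgeR's TMM moved the median of all genes by 0.18 in this comparison. It called 658 genes higher and 98 lower, with no member among them. Without wildtype dox eye cup 3, 6 visual cycle genes were called, where 4.39% of all genes were, and without wildtype untreated eye cup 1, 7 were, where 9.41% were.

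**Figure D5:**
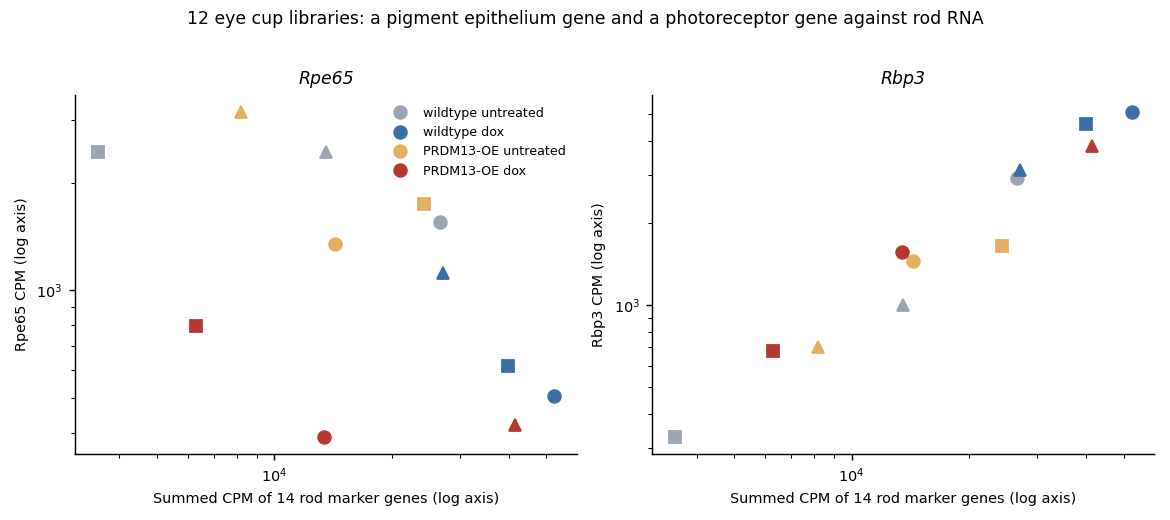
CPM of Rpe65 (left) and Rbp3 (right) against the summed CPM of 14 rod genes in the 12 eye cups (log axes), 1 point per mouse, with colour for group and shape for mouse number. The rod sum runs from 3522 to 52390 CPM and Rbp3 is high where it is high, while Rpe65 is low in the wildtype dox eye cups with high rod sums and in the PRDM13-OE dox eye cups at any rod sum.

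PRDM13-OE dox eye cups were then set against wildtype dox eye cups. Rdh8 stood at 4.004, 2.9 and 9.875 CPM against 34.55, 35.28 and 20.55 CPM. The groups did not overlap, and PRDM13-OE dox mouse 3 was nearest to the wildtype dox eye cups. The log2 difference was -2.38 (95% interval -3.472 to -1.28; edgeR adjusted p = 0.597), so it did not pass, while DESeq2 called it (adjusted p = 0.00112). By edgeR 0 of 10 members were called, where 0.0184% of 21758 genes were, with 1 member and 1792 genes at an unadjusted p under 0.05. The rod sums in PRDM13-OE dox eye cups were 13440, 6273 and 41570 CPM.

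Without PRDM13-OE dox eye cup 3, whose rod sum was the highest of its group, Rdh8 changed by -3.03 (edgeR adjusted p = 0.0122), Rbp3 by -1.83 (0.0485) and Abca4 by -1.02 (0.0373), in a fit that called 8.32% of all genes. With the rod sum as a covariate Rdh8 had -1.37 (adjusted p = 0.549). In the full set Rbp3 had -1.02 (0.61), Abca4 -0.58 (0.608) and Rpe65 -0.45 (0.713), all with overlapping groups. Blood transcripts were 12.45 to 14.27 CPM in PRDM13-OE dox eye cups and 238.2 to 3459 CPM in the other 9. Their part in these differences was not tested.

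Against PRDM13-OE untreated eye cups, the PRDM13-OE dox eye cups had lower Rpe65 in every mouse, at 388.9, 794.4 and 421.2 CPM against 1350, 1747 and 3157 CPM. The log2 difference was -1.96, and Rgr (-1.86), Rlbp1 (-1.20) and Lrat (-1.12) also had groups that did not overlap, as did 4.94% of genes in this direction. For these 4 genes the adjusted p was 0.975 by edgeR, with 4 members and 894 genes at an unadjusted p under 0.05. No member was called by edgeR, where 0.0139% of 21604 genes were, and DESeq2 called 1, Rpe65 (adjusted p = 0.022). Without the eye cup labelled PRDM13-OE untreated mouse 1, Rpe65 had -2.20 (edgeR adjusted p = 0.222), Rgr -2.09 (0.301), Rlbp1 -1.46 (0.347) and Lrat -1.31 (0.406).

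The untreated genotypes differed in the eye cup by -0.23 to 0.43 on the log2 scale over the 10 members, with no member and 0% of 21588 genes called by edgeR, no member and 404 genes at an unadjusted p under 0.05, and no member called by DESeq2. Without the eye cup labelled PRDM13-OE untreated mouse 1, edgeR called 8 genes higher and 290 lower and still no member, with values from -0.328 for Rdh8 to 0.622 for Rdh12. The eye cup interaction called no member and 0% of 23837 genes by edgeR, with 1 member and 1526 genes at an unadjusted p under 0.05 and no member called by DESeq2. For Rdh8 it was -2.27 (adjusted p = 0.753), and -2.05 (0.455) without that eye cup. Whether the genotypes differed more in 1 tissue than in the other among dox mice was tested as well. Again no member and 0% of 23678 genes were called by edgeR, 1 member and 1698 genes had an unadjusted p under 0.05, and DESeq2 called no member. Rdh8 had -1.19 ± 0.479 (SE; adjusted p = 0.685), eye cup minus retina, in a fit without a term for mouse though each mouse gave both tissues. Without PRDM13-OE dox eye cup 3 it had -1.92 (0.00232), Rbp3 -1.69 (0.0163) and Abca4 -1.08 (0.00297), in a fit that called 9.13% of all genes.

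The cycle draws on a wider set of retinoid enzymes and carriers, of which 36 were listed, 35 were in the table and 27 were tested in PRDM13-OE dox against wildtype dox retinas. At an adjusted p under 0.05, 5 of the 27 rose, where 5.01% of all genes did, and 3 fell, where 7.51% did. The median log2 fold change was 0.0 against 0.006 over all genes. Rbp4, the plasma retinol carrier, stood at 1.713, 1.538 and 1.236 CPM against 0.5756, 0.8584 and 0.5313 CPM. The groups did not overlap, the counts were only 9 to 29 per library, and the change of 1.17 ± 0.323 (SE; edgeR adjusted p = 0.0357) was called. It was lost in 5 of 6 fits without 1 mouse. Aldh1a3, which makes retinoic acid, stood at 0.2953, 0.7692 and 0.4837 CPM against 1.784, 1.77 and 1.417 CPM, a called change of -1.67 ± 0.359 (SE; adjusted p = 0.0102) on 5 to 33 counts. With the retinas of all groups in 1 fit it did not pass (adjusted p = 0.066).

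The others that passed in this comparison changed by less. Dhrs3, a retinal reductase expressed in cones, rose by 0.43 on the log2 scale (edgeR adjusted p = 2.79e-04), Dgat1 by 0.39 (0.0105), Rdh11 by 0.30 (0.0114) and Dhrs7 by 0.29 (0.0269). Stra6, the receptor for retinol-binding protein, fell by 0.43 (0.0263), and Degs1 by 0.21 (0.0241). Against PRDM13-OE untreated retinas, Rdh11 (0.41, adjusted p = 0.00364) and Dhrs3 (0.34, 0.0117) rose and Cyp1b1 fell by 0.46 (0.0483), of 28 tested. Of all genes, 2.04% rose and 2.96% fell there at an adjusted p under 0.05. Without the mouse labelled PRDM13-OE untreated 1, 4 of 28 passed: Rdh11 (adjusted p = 0.00916) and Dhrs3 (0.00604) as before, with Aldh1a1 (0.62, 0.00737) and Rdh10 (0.35, 0.0305) in addition, while Cyp1b1 did not pass (0.0782). None of the 4 was past the fold cutoff, in a fit that called 1.14% of all genes with that cutoff. In the retinal interaction 0 of 28 passed, where 1.19% of all genes passed as higher and 1.83% as lower. In the eye cup comparisons of genotype and dox none passed, where at most 0.0139% of all genes did in either direction. Without that mouse, 1 of 28 passed in the retinal interaction, Dhrs3 (0.35, adjusted p = 0.0467). It was not past the fold cutoff, with which that fit called 0.775% of all genes. In PRDM13-OE untreated against wildtype untreated eye cups 5 of 32 passed, all past the fold cutoff, with which that fit called 1.42% of all genes. Those 5, named after their values were seen, were all lower: Adh1 (-3.76), Adh7 (-3.48), Rbp2 (-3.18), Aldh1a3 (-2.99) and Cyp26b1 (-1.68). Between tissues of untreated wildtype mice, 19 of 32 were called higher in the eye cup, where 25.9% of all genes were, such as Aldh1a2 (7.09), a retinoic acid synthase, and Adh1 (10.76), an alcohol dehydrogenase that can oxidise retinol, and 2 were called lower, where 19.3% of all genes were, Crabp1 (-1.43) and Cyp26c1 (-2.38).

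The cone opsins, which take up the product of the cycle, fell in the PRDM13-OE dox retinas. The short-wave cone opsin Opn1sw stood at 223.6, 263.7 and 256.8 CPM against 539.7, 474.0 and 488.4 CPM in wildtype dox, a log2 change of -1.02 ± 0.069 (SE) at an adjusted p of 2.57e-06 by edgeR. The middle-wave cone opsin Opn1mw stood at 75.96, 54.28 and 84.01 CPM against 162.1, 200.4 and 203.3 CPM, a log2 change of -1.41 ± 0.136 (SE; adjusted p = 4.14e-05). For both the groups were apart. The change of Rdh8 in the same comparison lay between those of the cone opsins.

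Across the 12 libraries of a tissue the RPE members followed each other closely. In the retina Pearson's r of log2(CPM + 1) was 0.87 to 0.96 over the 10 pairs of RPE members, 0.28 to 0.64 over the 6 pairs of photoreceptor members and -0.56 to 0.39 between the sets, while Rlbp1 had -0.07 to 0.29 with the RPE members, 0.83 with Rdh8 and 0.66 with Rbp3. Over the 11 retinas without the one labelled PRDM13-OE untreated mouse 1, the RPE members had 0.8 to 0.95 with each other and -0.33 to 0.12 with Rlbp1. In the eye cup Rlbp1 followed the RPE members, at 0.94 to 0.98, and RPE members had -0.79 to -0.28 with photoreceptor members. The libraries share group, tissue purity and scaling, and these correlations are descriptions.

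Of 11856 retinal genes with a mean of at least 5 CPM, those most like Rdh8 over the 12 retinas were Gnat2 (r = 0.991), the cone transducin, Wdr89 (0.989) and Tafa3 (0.982). Those most like Rlbp1 were Kcng4 (0.964), Cdc42ep1 (0.953) and Tnnt1 (0.949). In the eye cup, among 12532 genes, Rpe65 was most like Rgr (0.994), Mogat1 (0.988) and Ramp2 (0.987), and Rbp3 was most like Esrrb (0.995). In the eye cup, Rlbp1 was most like Rrh (0.991), the opsin peropsin of the RPE.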

How the data were processed

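Neural retina and eye cup RNA of 12 mice was analysed from 1 table of 56748 genes. The deposited read counts per gene, not normalized, and the deposited FPKM, scaled by the authors for gene length and depth, were used. Per the labels' processing notes the reads were handled with CASAVA and HISAT2 on GRCm39 (mm39), and the counting tool is not given in the sources used here. Whether strand was used in counting is not stated, so for Lrat, Rgr and Abca4 reads of overlapping antisense genes cannot be told apart, and Rdh5 (Bloc1s1) and Ttr (Gm58847) overlap genes on the same strand. The authors' own comparison columns (mean normalized counts, fold changes and p-values) were not used.

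Genes with at least 10 counts summed over a comparison's libraries were fitted on the counts with edgeR 4.0.16 (R 4.3.3; TMM, quasi-likelihood, Benjamini-Hochberg adjustment over all genes tested). The interaction fits used 12 libraries. CPM were TMM-scaled within a tissue. DESeq2 1.42.0, other scalings and filters, and fits without 1 library were alternatives, and the code was tested on simulated data. Within a tissue 1 library is 1 mouse, while fits of both tissues kept the other library of that mouse. With 15825059 to 24908314 counts per library the members had 26 to 601715 counts each. Both tissues came from the same mice: same-numbered libraries of the tissue comparison deviated together (r = 0.13, 0.15 and 0.12), and the replicate block still called 10 visual cycle genes. The 10 genes, the wider lists and the tests were chosen with earlier results of these data known. Named were all members, up to 4 called genes per wider list and the 3 genes most like a member. Smaller changes of retinoid genes were named after their values were seen. Some genes that this rule names are not reported here.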

Additional observations from a re-analysis of the deposited data

Results flagged for a closer look

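In the neural retina the effect of dox differed between genotypes for 4 of the genes described, by the edgeR test of that difference itself (PRDM13-OE dox effect minus wildtype dox effect, n = 3 mice per group). The difference on the log2 scale was -0.98 for Rdh8 (adjusted p = 6.08e-05) and -0.51 for Rlbp1 (0.00298). It was -1.35 for Opn1mw (1.19e-04) and -1.03 for Opn1sw (6.67e-05). For Rdh8 and Rlbp1 the sign and the call at an adjusted p under 0.05 held without each mouse in turn, including the one labelled PRDM13-OE untreated 1. Without that mouse Opn1mw had -1.39 (0.000187) and Opn1sw -0.98 (0.000192).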

How the results depend on the processing

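The counts of called visual cycle genes stayed within 1.5 times the reported ones in 170 of 187 alternatives. With no fold cutoff they went from 1 to 5 in PRDM13-OE dox against wildtype dox retinas, from 1 to 2 against PRDM13-OE untreated retinas and from 0 to 2 in the retinal interaction. With no filter on low counts, the retinal interaction called 1 of the visual cycle genes and wildtype dox against untreated eye cups 6. DESeq2 called 1 in PRDM13-OE dox against wildtype dox eye cups, 6 in wildtype dox against untreated eye cups and 1 in PRDM13-OE dox against untreated eye cups. Leaving out 1 mouse gave 1 to 2, 0 to 1, 0 to 3 and 0 to 7 called visual cycle genes in PRDM13-OE dox against untreated retinas, the retinal interaction, PRDM13-OE dox against wildtype dox eye cups and wildtype dox against untreated eye cups. In the genotype by tissue interaction leaving out 1 library, with the other tissue of its mouse kept, gave 0 to 3. Over all genes the same fits called 165 to 234, 140 to 255, 0 to 1767, 0 to 1991 and 0 to 2137. The cause was not tested. In PRDM13-OE dox against untreated retinas, leaving out 1 mouse gave Lrat -0.583 to 1.30 and Ttr -0.982 to 0.70, positive and past the test without PRDM13-OE untreated mouse 1. Ttr reversed to 0.09 with the lens covariate in PRDM13-OE dox against wildtype dox retinas.

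A replicate block changed no count of called visual cycle genes (10 between tissues, 1 in PRDM13-OE dox against wildtype dox retinas). In the genotype by tissue interaction each mouse gave both tissues, and the main fit had no term for mouse. With such a term no member was called either. In the comparisons within a tissue the numbers name different animals. Over all genes, edgeR called 0 and DESeq2 1979 in wildtype dox against untreated eye cups, 4 and 100 in PRDM13-OE dox against wildtype dox eye cups, and 3 and 54 against PRDM13-OE untreated eye cups. Library size scaling changed the split of higher and lower calls in PRDM13-OE dox against wildtype dox retinas from 186 and 309 to 279 and 269, and between tissues from 5687 and 4238 to 4869 and 5540.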
